A study of Mus musculus with 9 samples.

Results

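The 10 genes described here make, load, recover, break down or sense acetylcholine: the enzymes Ache and Chat, the transporters Slc18a3 and Slc5a7, and the nicotinic receptor subunits Chrna3, Chrna4, Chrna5, Chrna7, Chrnb2 and Chrnb4. They were taken as every probe set annotated to one of these symbols, which gave 19 of 45037 probe sets without controls and all 10 genes among 18193 measured genes. Neuro2a, a clonal mouse neuroblastoma line, had received siMyT1 against Myt1, siLSD1 against Kdm1a (which encodes LSD1, a histone demethylase) or the control siRNA siControl for 48 h, with 3 arrays per group and 9 in all. All groups therefore share the line and the exposure to an siRNA, and the labels give no siRNA sequences. By its title the study places Myt1, a neural zinc finger protein, in an LSD1 complex, and the comparisons ask how loss of either one changes the transcripts.

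As background, choline acetyltransferase (Chat) joins choline and acetyl-CoA, the vesicular transporter Slc18a3 loads the product into vesicles, acetylcholinesterase (Ache) splits it after release, and Slc5a7 takes the choline back up. Nicotinic receptors are cation channels built from several subunits around a pore. Autonomic ganglia use mainly receptors with Chrna3 and Chrnb4, to which Chrna5 or Chrnb2 can be added, while Chrna4 with Chrnb2 and Chrna7 alone form the common brain types. Neuroblastoma cells descend from the sympathoadrenal lineage, whose neurons receive cholinergic input and release noradrenaline, apart from a minority that are themselves cholinergic.

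The 2 members that passed a test, Ache and Chrna3, are shown by the 250 bases before their RefSeq start (assembly GRCm38.p6, used for names and sequence only, since no build is tied to the array). Each is written 5′ to 3′ on the gene's own strand, with capitals for GGGCGG or its reverse complement CCGCCC, the GC box bound by Sp-type factors. The Ache window lies on the plus strand at chr5:137288004-137288253 and the Chrna3 window on the minus strand at chr9:55026563-55026812.
Ache: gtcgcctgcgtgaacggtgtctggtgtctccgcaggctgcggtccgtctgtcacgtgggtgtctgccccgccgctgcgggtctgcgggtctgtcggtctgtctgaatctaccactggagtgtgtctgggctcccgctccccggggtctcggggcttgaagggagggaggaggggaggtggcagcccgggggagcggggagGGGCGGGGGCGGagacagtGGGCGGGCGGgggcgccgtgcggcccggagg
Chrna3: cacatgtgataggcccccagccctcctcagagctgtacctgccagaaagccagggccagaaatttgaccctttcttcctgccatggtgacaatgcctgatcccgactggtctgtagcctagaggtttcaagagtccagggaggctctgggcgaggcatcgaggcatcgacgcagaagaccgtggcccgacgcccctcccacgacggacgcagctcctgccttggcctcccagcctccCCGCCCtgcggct
The Ache window held 4 GC boxes, some of them overlapping, and the Chrna3 window held 1. A GC box on either strand occurred in 32.7% of 32851 promoter windows of this length. The E-box CANNTG, counted once for both strands because it reads alike on each, occurred once in the Ache window and in 66.2% of all windows. The Chrna3 window held 2 matches, which overlap each other at its 5′ end. AAGTT, the core bound by Myt1-type zinc fingers, was in neither window on either strand and in 35.3% of all windows. The Egr motif GCGGGGGCG was found 2 times in the Ache window, each time overlapping a GC box, and in 2.57% of all windows. The Ache window was 73.6% G or C. Members that passed no test had such motifs too. Chrna7 had 1 Egr motif and 1 GC box, and GC boxes numbered 3 for Chrna4, 2 for Slc18a3 and 4 in 1 Chrna5 window. The windows of Chat, Slc5a7, Chrnb2 and Chrnb4 held neither motif. These matches describe letters only.

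The values are deposited linear intensities whose scale is not given, so they are called units here, and intensities of different probe sets do not measure relative transcript amounts. Array medians lay between 0.302 and 0.424 units. Myt1 measured 0.660 ± 0.21 units in siMyT1 cells and 4.90 ± 0.34 units in siControl cells (SD, n = 3 each), and Kdm1a 4.49 ± 0.40 units in siLSD1 cells and 29.0 ± 1.0 units in siControl cells. In siLSD1 cells Myt1 measured 6.95 ± 0.72 units, and every siLSD1 array lay above every siControl array. In siMyT1 cells Kdm1a measured 30.9 ± 1.6 units. The neuronal and sympathoadrenal genes Phox2a, Hand2, Isl1, Gata3 and Tubb3 had means above those of 78.1% to 98.1% of all probe sets. Th and Dbh, enzymes of noradrenaline synthesis, lay lower, above 71.4% and 61.9%. The neurofilament genes Nefl and Nefm were dim, above only 23.4% and 8.40%. Of 5 fibroblast markers, 3 glial and 4 macrophage markers, the summed levels reached at most 2.55, 1.11 and 1.60 units on any siMyT1 array, 1.54, 0.952 and 1.49 on any siLSD1 array, and 1.84, 1.24 and 1.57 on any siControl array. Differences were tested with limma on log2(value + 0.196 units), a scale that understates changes of dim genes, and were called at a Benjamini-Hochberg adjusted p below 0.05 over all genes. The higher Myt1 level in siLSD1 than in siControl was not called (log2 difference 0.49, limma adjusted p = 0.0643). The direct comparison of siMyT1 with siLSD1 thus sets the lowest Myt1 mean against the highest. With 3 arrays a group an exact permutation test of 1 gene cannot go below p = 0.1, and the labels do not say whether replicates were separate cultures, so the p-values measure only the spread between these samples, which may be technical.

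Both synaptic transporters and the synthetic enzyme were dim in every group. The Chat probe set measured 0.144, 0.278 and 0.157 units in siMyT1 cells, 0.178, 0.00746 and 0.119 units in siLSD1 cells, and 0.224, 0.124 and 0.201 units in siControl cells. Slc18a3, whose gene lies inside the Chat gene, measured 0.0524 to 0.203 units in siMyT1 cells, 0.0488 to 0.303 units in siLSD1 cells and 0.0117 to 0.120 units in siControl cells. Slc5a7 measured 0.0225 to 0.144 units in siMyT1 cells, 0.0640 to 0.104 units in siLSD1 cells and 0.0322 to 0.220 units in siControl cells. The groups overlapped in all of these. For comparison, 17 probe sets of 11 liver, pancreas and red cell genes had a median mean of 0.0556 units and a 90th percentile of 0.142 units, although one of these genes, Cela1, reached 20.8 units.

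The subunits split into bright and dim ones. The median of all probe sets lay at 0.328 units. Above it were 7 of the 19 member probe sets, from 4 genes (Ache, Chrna3, Chrna7 and Chrnb2), and 12 lay below it, including every probe set of the other 6 genes. The ganglionic subunit Chrnb4 measured 0.0367 to 0.125 units in siMyT1 cells, 0.0676 to 0.176 units in siLSD1 cells and 0.0279 to 0.241 units in siControl cells by its brighter probe set. Chrna5, an accessory subunit, measured 0.268 to 0.352 units in siMyT1 cells, 0.204 to 0.282 units in siLSD1 cells and 0.253 to 0.352 units in siControl cells. Chrna4, a brain-type subunit, measured 0.242 to 0.485 units in siMyT1 cells, 0.209 to 0.213 units in siLSD1 cells and 0.166 to 0.252 units in siControl cells; its siMyT1 and siLSD1 arrays did not overlap, without a call (adjusted p = 0.250 by limma). None of these 6 dim genes passed the limma test in any of the 3 comparisons (0 of 18 tests, and 0 at an unadjusted p below 0.05), and no fold change of the gene level is given for them because their means lie below that median. The other probe sets of these genes were dim too. Chrna4 probe set 1421202_at measured 0.0540 to 0.190 units in siMyT1 cells, 0.0157 to 0.158 units in siLSD1 cells and 0.123 to 0.329 units in siControl cells. Among the 12 dim probe sets it gave the 1 of 36 tests with an unadjusted limma p below 0.05, in siLSD1 against siControl, where it did not pass (limma adjusted p = 0.264). Chrna4 probe set 1456354_at stayed at 0.0089 to 0.0833 units in siMyT1, 0.0063 to 0.0898 units in siLSD1 and 0.0377 to 0.105 units in siControl. Chrna5 probe set 1442035_at stayed at 0.0189 to 0.220 units in siMyT1, 0.109 to 0.203 units in siLSD1 and 0.166 to 0.274 units in siControl. Chrnb4 probe set 1457008_at stayed at 0.0350 to 0.166 units in siMyT1, 0.0319 to 0.0510 units in siLSD1 and 0.0286 to 0.128 units in siControl.

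**Figure D1:**
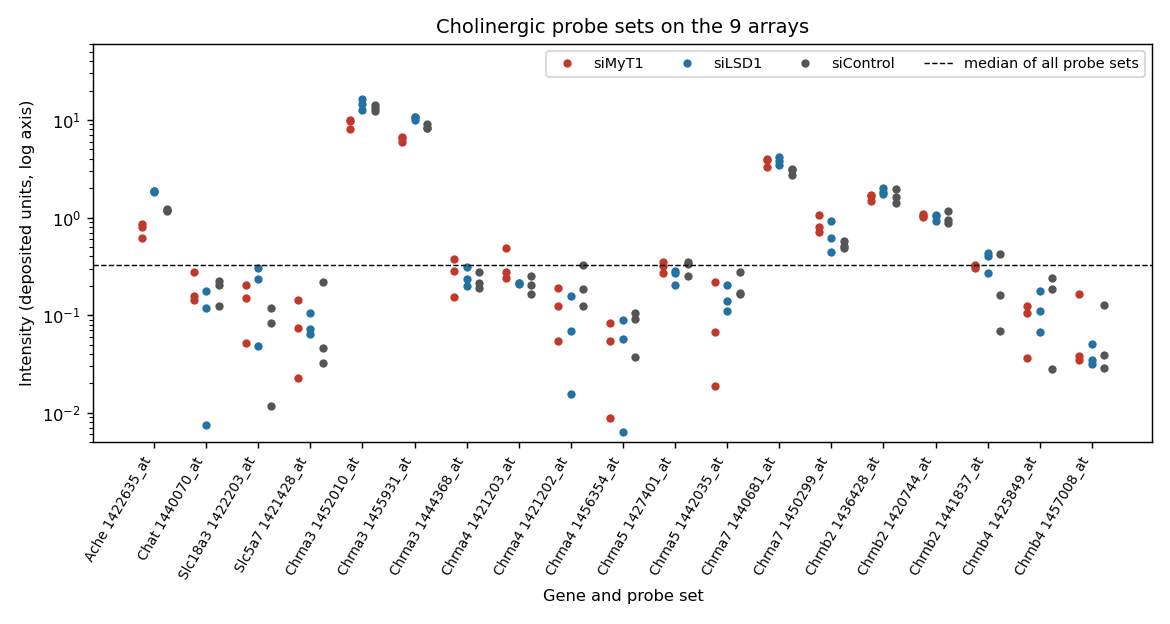
Intensity in deposited units (log axis) of all 19 cholinergic probe sets, with 1 point per array, coloured by siRNA, and a dashed line at the median of all probe sets. The 7 probe sets above the line belong to Ache, Chrna3, Chrna7 and Chrnb2, and the siMyT1 points lie below the siLSD1 points for Ache and for both bright Chrna3 probe sets.

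Ache stood lowest in siMyT1 cells and highest in siLSD1 cells. Its only probe set, 1422635_at, measured 0.806, 0.869 and 0.611 units in siMyT1 cells, 1.84, 1.87 and 1.88 units in siLSD1 cells, and 1.18, 1.22 and 1.19 units in siControl cells. No array of any group overlapped with another group, and the spread was widest within siMyT1, where replicate 3 was the lowest of the 9 arrays. The mean was 63.7% of control after siMyT1 and 156% of control after siLSD1. Ache thus fell in siMyT1 against siControl (log2 difference -0.55, SE 0.14, limma adjusted p = 0.0366) and rose in siLSD1 against siControl (0.57, SE 0.14, limma adjusted p = 0.0266). Both comparisons use the same control arrays. Compared directly, siMyT1 cells had 40.9% of the siLSD1 level (-1.11, SE 0.14, limma adjusted p = 0.000169), and this difference was called under all 22 alternative settings (adjusted p from 1.33e-07 to 0.00162). The calls against control were less stable. That of siMyT1 held in 13 of 22 settings (adjusted p from 0.00611 to 0.139) and was lost without siMyT1 replicate 3 (-0.43, adjusted p = 0.139), without any 1 siLSD1 array (adjusted p = 0.0521 to 0.0678), without any 1 siControl array (adjusted p = 0.0880 to 0.103), with the compared groups alone (0.108) and with the replicate number as a block (0.0658). That of siLSD1 held in 16 of 22 and was lost without any 1 siLSD1 or siControl array (adjusted p = 0.0617 to 0.103).

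Chrna3, the ligand-binding subunit of ganglionic receptors, was lower in siMyT1 cells than in both other groups. Its brightest probe set, 1452010_at, measured 8.04, 9.96 and 9.71 units in siMyT1 cells, 16.2, 12.7 and 14.5 units in siLSD1 cells, and 14.2, 13.2 and 12.5 units in siControl cells. All siMyT1 arrays lay below all others, while siLSD1 and siControl overlapped. Chrna3 fell to 69.6% of control in siMyT1 (log2 difference -0.52, SE 0.10, limma adjusted p = 0.00703) and to 63.7% of the siLSD1 level (-0.64, SE 0.10, limma adjusted p = 0.000561). Between siLSD1 and siControl the difference of 0.12 did not pass (95% interval -0.09 to 0.33, limma adjusted p = 0.564).

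The other bright Chrna3 probe set, 1455931_at, measured 5.95, 6.50 and 6.62 units in siMyT1 cells, 10.6, 10.6 and 9.88 units in siLSD1 cells, and 8.32, 9.19 and 8.29 units in siControl cells. Here the groups did not overlap at all, with siControl in the middle. In the limma fit over all 45037 probe sets its differences were -0.42 for siMyT1 against siControl (adjusted p = 0.00644, and 0.0521 without the variance trend) and -0.69 for siMyT1 against siLSD1 (adjusted p = 7.88e-05). For siLSD1 against siControl it was 0.27 (SE 0.07), just short of the threshold (adjusted p = 0.0522), and it was called in 6 of 19 settings. The remaining probe set, 1444368_at, lay below that median or close to it, at 0.153 to 0.376 units in siMyT1 cells, 0.199 to 0.313 units in siLSD1 cells and 0.189 to 0.277 units in siControl cells. When the log2 values of all Chrna3 probe sets were averaged, this one included, the difference of siMyT1 from siControl was -0.27 and no longer passed (adjusted p = 0.184), and that from siLSD1 was -0.43 (adjusted p = 0.0174).

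Chrna3 lies between Chrna5 and Chrnb4 on chromosome 9, where the annotated ends of Chrna5 and Chrna3 share 1304 bases and 1591 bases separate Chrna3 from Chrnb4. The 3 genes are usually described as a cluster under common control. Here both neighbours lay below the median of all probe sets, and neither was called. A list of 4 genes held Psma4, Hykk and Ireb2, which lie beside the cluster, and Adamts7, which lies far from it on the same mouse chromosome. None of the 4 was called by limma in any comparison. At an unadjusted p below 0.05, 1 of them, Psma4, was higher in siMyT1 than in siLSD1 and 0 differed from siControl. Of all 18193 genes, 3931 were higher in siMyT1 than in siLSD1 at that unadjusted p.

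Chrna7 and Chrnb2 were bright but not called. Chrna7, whose protein forms channels of 1 subunit type, measured 3.31, 4.004 and 3.88 units in siMyT1 cells, 4.16, 3.42 and 3.77 units in siLSD1 cells, and 3.05, 3.17 and 2.73 units in siControl cells by probe set 1440681_at. Every knockdown array lay above every control array, and the knockdowns overlapped with each other. The differences from siControl were 0.30 for siMyT1 (SE 0.10, 95% interval 0.08 to 0.53, limma adjusted p = 0.105) and 0.32 for siLSD1 (SE 0.10, 95% interval 0.10 to 0.55, limma adjusted p = 0.0786). Each passed in 4 of 22 settings, which for siMyT1 included the omission of siMyT1 replicate 1. The direct difference was -0.02 (95% interval -0.24 to 0.21). The dimmer Chrna7 probe set, 1450299_at, measured 0.713, 1.07 and 0.795 units in siMyT1 cells, 0.916, 0.448 and 0.614 units in siLSD1 cells, and 0.580, 0.514 and 0.489 units in siControl cells. In it siMyT1 but not siLSD1 stayed clear of the control arrays, and no difference was called.

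Chrnb2, the partner of Chrna4 in brain receptors, measured 1.70, 1.49 and 1.68 units in siMyT1 cells, 1.76, 2.01 and 1.83 units in siLSD1 cells, and 1.62, 1.97 and 1.42 units in siControl cells. The siMyT1 and siLSD1 arrays did not overlap, and the control arrays overlapped with each. Its differences were -0.03 for siMyT1 against siControl (95% interval -0.32 to 0.26), 0.15 for siLSD1 against siControl (-0.14 to 0.44) and -0.18 for siMyT1 against siLSD1 (-0.47 to 0.11), with limma adjusted p of 0.946, 0.603 and 0.413. Its other probe set above the median, 1420744_at, ranged from 1.01 to 1.08 units in siMyT1 cells, from 0.927 to 1.06 units in siLSD1 cells and from 0.870 to 1.17 units in siControl cells. The third, 1441837_at, was dim, at 0.308 to 0.326 units in siMyT1 cells, 0.270 to 0.438 units in siLSD1 cells and 0.0691 to 0.426 units in siControl cells.

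**Figure D2:**
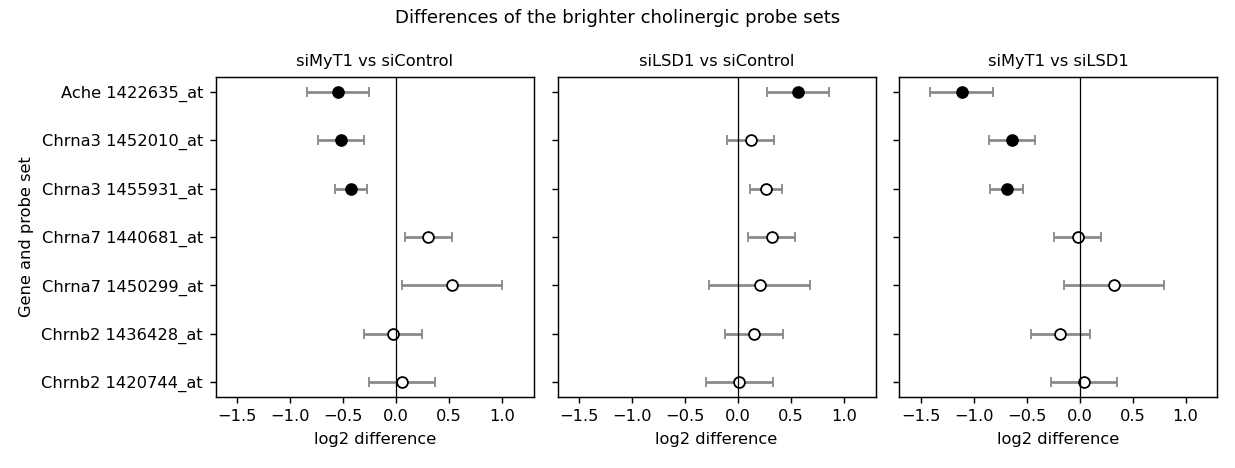
Log2 differences of the 7 brighter cholinergic probe sets in the 3 comparisons, from the limma fit over all probe sets, with unadjusted 95% intervals. Filled points passed an adjusted p of 0.05: Ache in each comparison, and both Chrna3 probe sets in siMyT1 against siControl and against siLSD1.

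Among the 10 genes, 2 were lower and 0 higher in siMyT1 than in siControl, where 2.29% of all genes were called lower and 5.12% higher. In siLSD1 against siControl 1 was higher and 0 lower, with 3.97% and 4.93% of all genes. In siMyT1 against siLSD1 2 were lower and 0 higher, with 5.58% and 13.2% of all genes. At an unadjusted limma p below 0.05 the counts were 2 lower and 1 higher, 0 lower and 2 higher, and 2 lower and 0 higher in these comparisons, where 1157 lower and 2560 higher, 2268 lower and 1578 higher, and 1582 lower and 3931 higher of the 18193 genes were. The median log2 difference of the 10 genes was -0.02, 0.07 and -0.08, against 0.05, -0.03 and 0.09 over all genes. Of the 19 probe sets, 5 did not overlap between siMyT1 and siControl, 3 between siLSD1 and siControl and 5 between siMyT1 and siLSD1, or 26.3%, 15.8% and 26.3%, where the shares over all probe sets were 18.9%, 22.1% and 27.0%. In the fit over all probe sets, 3, 1 and 3 of the 19 were called, where 3.24%, 5.05% and 11.2% of all probe sets were.

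Of 53 further genes, 48 were measured. They covered other nicotinic subunits, muscarinic receptors, cholinesterase relatives and anchors, receptor assembly, and choline supply and use. Transcription factors of cholinergic or ganglionic neurons, cytokine receptors and the list of neighbours of the Chrna5-Chrna3-Chrnb4 cluster were included too. The counts therefore do not describe cholinergic signalling alone. In siMyT1 against siControl 3 fell and 0 rose (6 lower and 2 higher at an unadjusted limma p below 0.05), where 2.29% of all genes fell and 5.12% rose. At that unadjusted p, 1157 of all 18193 genes were lower and 2560 higher. In siLSD1 against siControl 4 fell and 3 rose, where 4.93% and 3.97% of all genes did. In siMyT1 against siLSD1 4 were lower and 3 higher, where 5.58% and 13.2% of all genes were. Their median log2 differences were 0.04, -0.07 and 0.14, against 0.05, -0.03 and 0.09 over all genes.

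Prima1, the membrane anchor that holds acetylcholinesterase at the surface of neurons, followed the order of Ache. It measured 1.57, 1.66 and 1.95 units in siMyT1 cells, 3.44, 3.21 and 3.23 units in siLSD1 cells, and 2.34, 2.36 and 2.35 units in siControl cells, with no overlap between groups. It fell in siMyT1 (log2 difference -0.41, SE 0.10, limma adjusted p = 0.0316), rose in siLSD1 (0.45, SE 0.10, limma adjusted p = 0.0152) and differed directly by -0.86 (SE 0.10, limma adjusted p = 0.000103). The direct difference was called in 22 of 22 settings. The calls against control held in 13 and 19 of 22. That of siMyT1 was lost with its probe sets averaged, with the compared groups alone, with the replicate block, and without siMyT1 replicate 1 or 2, siLSD1 replicate 3 or any siControl array, and that of siLSD1 without siLSD1 replicate 1 or 3 or siControl replicate 1 (adjusted p up to 0.0979 and 0.0678). Its other probe set, 1425304_s_at, averaged 1.57, 2.23 and 1.86 units in siMyT1, siLSD1 and siControl cells, and only its direct difference passed (-0.45, limma adjusted p = 0.0356).

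Phox2a, a homeodomain factor of autonomic neurons, had the same order of groups. It measured 16.3, 18.0 and 16.7 units in siMyT1 cells, 29.1, 26.1 and 29.0 units in siLSD1 cells, and 21.3, 21.1 and 21.5 units in siControl cells. Directly, siMyT1 cells had 60.5% of the siLSD1 level (log2 difference -0.72, SE 0.06, limma adjusted p = 7.33e-06). The bHLH factor Hand2 fell in both knockdowns, averaging 37.6 ± 1.8 units in siMyT1 cells, 39.8 ± 2.8 units in siLSD1 cells and 51.7 ± 4.6 units in siControl cells (SD, n = 3 each), though its siLSD1 call was lost after median centring and after averaging its probe sets. Summed over 9 sympathoadrenal markers that include Phox2a and Hand2, levels were 94.0 to 99.8 units in siMyT1, 113 to 124 units in siLSD1 and 110 to 122 units in siControl. Most of the sum came from Hand2, Tubb3, Phox2a and Isl1, and the markers did not move alike. Gata3 and Isl1 averaged 4.52 and 13.3 units in siMyT1, 4.40 and 11.8 units in siLSD1, and 3.47 and 12.1 units in siControl, without a call. Within that sum, Th, the first enzyme of noradrenaline synthesis, averaged 1.74 ± 0.067 units in siMyT1, 3.29 ± 0.15 units in siLSD1 and 2.15 ± 0.14 units in siControl. It rose in siLSD1 against siControl (0.58, limma adjusted p = 0.00262) and was lower in siMyT1 than in siLSD1 (-0.85, limma adjusted p = 8.62e-05). The neuronal tubulin Tubb3 likewise rose in siLSD1 against siControl (0.42, limma adjusted p = 0.000675). Dbh, the last enzyme of that synthesis, averaged 0.805 ± 0.045 units in siMyT1, 0.958 ± 0.18 units in siLSD1 and 1.22 ± 0.15 units in siControl and was not called. Fibroblast markers summed to 1.91 to 2.55 units in siMyT1, 1.38 to 1.54 units in siLSD1 and 1.32 to 1.84 units in siControl. Only Dcn of these 5 was called against siControl, at 1.29 ± 0.076 units in siMyT1 and 0.777 ± 0.053 units in siControl (0.61, limma adjusted p = 0.0292). The 5 muscle markers summed to 19.6 to 21.6, 22.3 to 24.2 and 22.1 to 24.5 units in the same order of groups. Nearly all of this came from Myh3 (means of 19.1, 22.2 and 22.1 units), whereas Acta1 averaged 0.504, 0.467 and 0.318 units, and neither was called against siControl. The part of these shifts in the Ache and Chrna3 results was not tested, and on RNA from whole cultures fewer cells of a type and less RNA per cell cannot be told apart. Isl1, a LIM factor of motor and sympathetic neurons, was bright and not called. Rest, a repressor of neuronal genes, measured 2.93 ± 0.16 units in siMyT1 cells and 1.83 ± 0.060 units in siLSD1 cells, a direct difference of 0.63 (limma adjusted p = 0.00134) that did not survive averaging over its probe sets (0.22, adjusted p = 0.434). Its other probe set above the median of all probe sets, 1428227_at, gave 0.62 (limma adjusted p = 0.00439), and the remaining Rest probe sets in that average were dim, at means of at most 0.175 units in siMyT1 and 0.245 units in siLSD1. Sp1, which binds GC boxes, fell in siLSD1 by 0.25 against siControl (limma adjusted p = 0.0196), a call lost in 7 of 22 settings, among them median centring (-0.17, adjusted p = 0.273) and the omission of siLSD1 replicate 2 or 3 or siControl replicate 1 or 2 (adjusted p up to 0.0957).

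**Figure D3:**
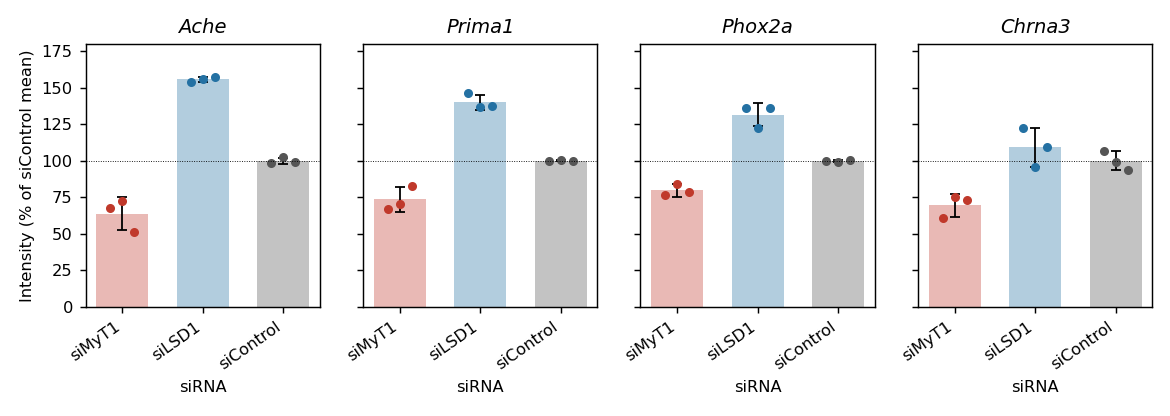
Intensity of Ache, Prima1, Phox2a and Chrna3 (brightest probe set) as a percentage of the siControl mean; bars are means of 3 arrays, error bars SD and points single arrays. Ache had 63.7% of control in siMyT1 and 156% in siLSD1, and Prima1 and Phox2a have the same order of groups, whereas siLSD1 and siControl overlap for Chrna3.

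Of 8 choline supply genes, 2 fell and 1 rose in siLSD1 against siControl, where 4.93% of all genes fell and 3.97% rose. Slc44a1, a plasma membrane choline transporter, fell in siLSD1 (9.47 ± 0.71 units, against 12.9 ± 0.41 units in siControl; log2 difference -0.44, limma adjusted p = 0.00422). Its relative Slc44a2 rose (9.44 ± 0.36 units in siLSD1 and 6.66 ± 0.55 units in siControl; 0.49, limma adjusted p = 0.00245). In siMyT1 they measured 13.9 ± 1.6 and 6.81 ± 0.73 units and were not called against siControl. Averaging over each gene's probe sets ended both siLSD1 calls (-0.26, adjusted p = 0.281 for Slc44a1, and 0.42, adjusted p = 0.0711 for Slc44a2), and that of Slc44a1 was also lost after median centring. Another Slc44a2 probe set, 1428065_at, passed by itself in the fit over all probe sets (4.24 ± 0.18 units in siLSD1 and 2.88 ± 0.25 units in siControl; 0.53, limma adjusted p = 0.005001). Pcyt1a, an enzyme that commits choline to phosphatidylcholine, fell in siLSD1 by 0.38 (limma adjusted p = 0.0215), a call lost without the variance trend and without siLSD1 replicate 2 or siControl replicate 1 or 2. It averaged 4.12 units in siMyT1, 3.96 units in siLSD1 and 5.21 units in siControl. The siMyT1 difference from siControl was thus similar, at -0.32, and just short of the threshold (limma adjusted p = 0.0524). Directly, the knockdowns differed by 0.05 (limma adjusted p = 0.764). Among 3 cytokine receptor genes of the cholinergic switch in sympathetic neurons, Cntfr was lower in siMyT1 than in siLSD1 (3.76 ± 0.33 and 5.90 ± 0.34 units; -0.63, limma adjusted p = 0.00485), a call lost when its probe sets were averaged (adjusted p = 0.0971).

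Of 9 other nicotinic subunit genes, only Chrnb1, a muscle-type subunit, was called, in 1 comparison where 13.2% of all genes were called higher. It averaged 0.847 ± 0.20 units in siMyT1 cells and 0.503 ± 0.013 units in siLSD1 cells (log2 difference 0.56, limma adjusted p = 0.0498), a call that held in 6 of 21 settings. It was lost without siMyT1 replicate 2 or 3 and without any single siLSD1 or siControl array (adjusted p up to 0.160). None of 3 muscarinic receptors and none of 7 genes for receptor assembly and modulation was called by limma in any comparison. At an unadjusted limma p below 0.05, 1 muscarinic receptor was higher in siMyT1 than in siControl. In siMyT1 against siLSD1, 1 muscarinic receptor and 1 assembly gene were higher. Of all 18193 genes, 2560 and 3931 were higher in these 2 comparisons.

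Profiles over the 9 arrays were compared by the root mean square difference of centred log2 values. Only genes whose mean intensity was at least the median of all genes were searched. Among these, the transcripts closest to Ache were Tpbgl (0.10), Dnm1 (0.11) and Nsg2 (0.12). Dnm1, the dynamin of synaptic vesicle retrieval, measured 6.33, 6.39 and 5.87 units in siMyT1 cells, 11.9, 11.4 and 12.0 units in siLSD1 cells, and 8.13, 8.47 and 8.37 units in siControl cells. Nsg2, a neuronal endosomal protein, averaged 3.46, 6.80 and 4.69 units in siMyT1, siLSD1 and siControl cells by its brightest probe set. With its probe sets averaged, its differences from siControl were -0.34 in siMyT1 and 0.12 in siLSD1, and neither passed (limma adjusted p = 0.114 and 0.676). Closest to Chrna3 were Chga (0.08), the granin of dense-core vesicles, Aph1b (0.09), a gamma-secretase subunit, and Naa38 (0.09), a part of an N-terminal acetyltransferase. Chga averaged 11.3 ± 1.2 units in siMyT1 cells, 16.5 ± 0.73 units in siLSD1 cells and 15.2 ± 0.62 units in siControl cells. All 6 were picked for their likeness, so their values describe the pattern and add no test.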

How the data were processed

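Gene expression was measured on 9 one-colour arrays. The authors deposited 1 linear intensity per probe set and array. The labels give the RNA and labelling kits, while summarisation, background and scaling steps are not stated there. Probe sets were named from the platform annotation (34945 with 1 symbol, 932 with several), and 34741 matched RefSeq of GRCm38.p6 by Entrez identifier. Each gene was represented by its probe set with the highest mean, and all probe sets were also fitted separately. Tests ran on the log2 scale after adding 0.196 units, which is 32 after scaling all arrays by 1 constant that sets the mean trimmed by 2% at each end to 500. Group means over all 9 arrays were fitted with limma 3.58.1 in R 4.3.3 (eBayes with trend, 6 residual and 6.84 prior degrees of freedom), two-sided, with Benjamini-Hochberg adjustment over 18193 genes or 45037 probe sets. The script was tested on simulated arrays. The number of arrays limits the precision. The members, the further gene lists and the settings were chosen with earlier results of these data known. Named were the members with their probe sets, the siRNA targets, further list genes called in at least 1 comparison (Psma4, Hykk, Ireb2 and Adamts7 were added after their values were seen), some cell type markers, and 3 nearest profiles for each of the 2 members with the smallest F-test p. Alternatives covered scaling, pseudocount, dim genes, probe sets, variance model, array weights, replicate block and single arrays left out.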

Additional observations from a re-analysis of the deposited data

How the results depend on the processing

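Over 22 alternative settings, the counts of members lower in siMyT1 than in siLSD1 (2), higher in siMyT1 than in siLSD1 (0) and lower in siLSD1 than in siControl (0) did not move. In the fit over all probe sets, 3 member probe sets were called in at least 1 comparison. That count was followed in fewer settings, and a small rise in it was not marked as a change. Whether Chrna7 probe set 1440681_at was added to it in some settings is not reported here. Members higher in siLSD1 than in siControl, 1 as reported, were 2 after quantile normalization, median centring, leaving out dim genes and array weights, and 0 to 1 when single arrays were left out. Members higher in siMyT1 than in siControl, 0 as reported, were 1 after quantile normalization, leaving out dim genes and array weights, and 0 to 1 when single arrays were left out; in each the added gene was Chrna7. Members lower in siMyT1 than in siControl, 2 as reported, were 1 with each gene's probe sets averaged, with the compared groups alone and with the replicate block, and 1 to 2 when single arrays were left out. The labels do not say whether equal replicate numbers mark a pairing. Over all genes, the deviations of same-numbered arrays correlated at -0.03 to 0.04 and differently numbered ones at -0.03 to 0.05. No strong shared deviation was thus seen, although a pairing that touches only some genes could be missed. Single differences were followed for the brighter members, their brighter probe sets and called genes, but not for dim members or dim probe sets. Among those followed, small uncalled differences changed sign, all of them from Chrna7 or Chrnb2. For Chrnb2 probe set 1420744_at, siMyT1 against siLSD1 was -0.0878 after quantile normalization and -0.0868 after median centring, and omission of single arrays gave -0.0074 to 0.0717. The same omissions gave it -0.0626 to 0.118 in siLSD1 against siControl and -0.0208 to 0.160 in siMyT1 against siControl, and gave Chrna7 probe set 1450299_at -0.00038 to 0.393 in siLSD1 against siControl. By its main probe set, Chrna7 in siMyT1 against siLSD1 was 0.153 with probe sets averaged and -0.0844 to 0.0619 over the omissions. Chrnb2 in siMyT1 against siControl was 0.14 with probe sets averaged and -0.126 to 0.0843 over the omissions. The causes were not tested. Median centring moved the median of all genes by -0.13 in siMyT1 against siLSD1, where Ache became -1.24 and Chrna3 -0.77. Dim probe sets limit what can be seen of 6 of the 10 genes.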
